A study of Mus musculus with 6 samples.

Results

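The genes of glucose uptake, glycolysis, lactate handling, entry of pyruvate into the mitochondrion and the pentose phosphate pathway were examined in mouse CT26 tumors, by library and by isoform. The group holds 34 gene symbols at 18 enzymatic or transport steps, chosen by pathway membership with earlier results of these data known. They were found by GENCODE symbol as 35 of the 32110 gene records, because Aldoa has 2 records. All 35 passed the filter on low values, a mean of at least 0.5 FPKM, and stood among 15560 genes tested.

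CT26 is a colon carcinoma line of BALB/c mice, here injected into the skin of the right flank of male wild-type animals. In the iRFA group, tumors received incomplete radiofrequency ablation, in which an electrode heated part of the tumor to 70 °C and left part of it alive, and residual tissue was taken 3 days later. The untreated group carried the same tumors with no ablation. Each group has 3 libraries of bulk RNA, and the labels name no animals, so p-values measure only the spread between these libraries. In bulk samples, fewer cells of a type and less RNA per cell cannot be told apart.

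Glycolysis splits glucose into pyruvate in the cytosol, and lactate dehydrogenase interconverts pyruvate and lactate, which monocarboxylate transporters carry across the membrane with a proton. Most steps have several isoforms encoded by separate genes, whose balance differs between tissues: muscle, brain, heart and myeloid cells each favor their own. Tumors and activated macrophages are both known for high glycolytic flux, and the pentose phosphate pathway branches off to supply NADPH and ribose.

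Values are FPKM, the fragments assigned to a gene divided by its length and by the total mapped in the library, so levels can be set side by side between genes. They sum to between 341807 and 345320 in the iRFA libraries and to between 313940 and 340485 in the untreated libraries, and the depth in reads is unknown. The library labelled untreated replicate 3 stood apart from its group. Over all genes tested its log2 values correlated at 0.983 to 0.987 with the iRFA libraries and at 0.801 to 0.807 with untreated replicates 1 and 2. Whether the labels of the untreated libraries are right cannot be told from the files, and every untreated mean, every fold change and every value given without this library rests on them. It is called untreated replicate 3 below as labelled, and each main result is given with and without it. Mesothelial markers, 7 genes with Krt19, Msln, Upk3b and Wt1 among them, summed to 1.05 to 1.25 FPKM in the iRFA libraries, against 628 and 579 FPKM in untreated replicates 1 and 2 and 1.72 FPKM in untreated replicate 3. Skeletal muscle markers (16 genes) summed to 44.3 to 72.9 FPKM after iRFA, against 244, 301 and 3.32 FPKM in untreated replicates 1, 2 and 3, and fibroblast markers (9 genes) to 503 to 789 FPKM, against 3282, 3839 and 563 FPKM. Macrophage markers (11 genes) ran the other way, with 3375 to 3760 FPKM after iRFA, against 1551, 1535 and 3065 FPKM. The keratins Krt8 and Krt18 of the colon epithelium list reached 247 and 194 FPKM in untreated replicate 1 and 234 and 180 FPKM in untreated replicate 2, and no more than 0.122 FPKM in any other library, while Cdx2, the defining intestinal factor, was at or near 0 in all. Over the whole lists, colon epithelium markers summed to 2.53 to 3.73 FPKM after iRFA, against 468, 440 and 2.18 FPKM, and skin keratinocyte markers to 2.36 to 6.03 FPKM, against 75.2, 295 and 3.47 FPKM. In the remaining lists the sums lay closer together. Neutrophil markers were at 6.62 to 9.37 against 5.33 to 20.6 FPKM, T and NK cells at 26.8 to 47.6 against 25.7 to 55.2 FPKM, endothelium at 32.1 to 44.4 against 36.0 to 43.1 FPKM, adipocytes at 2.50 to 11.5 against 2.74 to 12.5 FPKM, erythroid cells at 34.9 to 76.7 against 27.2 to 62.7 FPKM, and neurons at 9.37 to 11.2 against 7.25 to 8.45 FPKM. The part of these cell types in the results on the pathway was not tested.

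**Figure D1:**
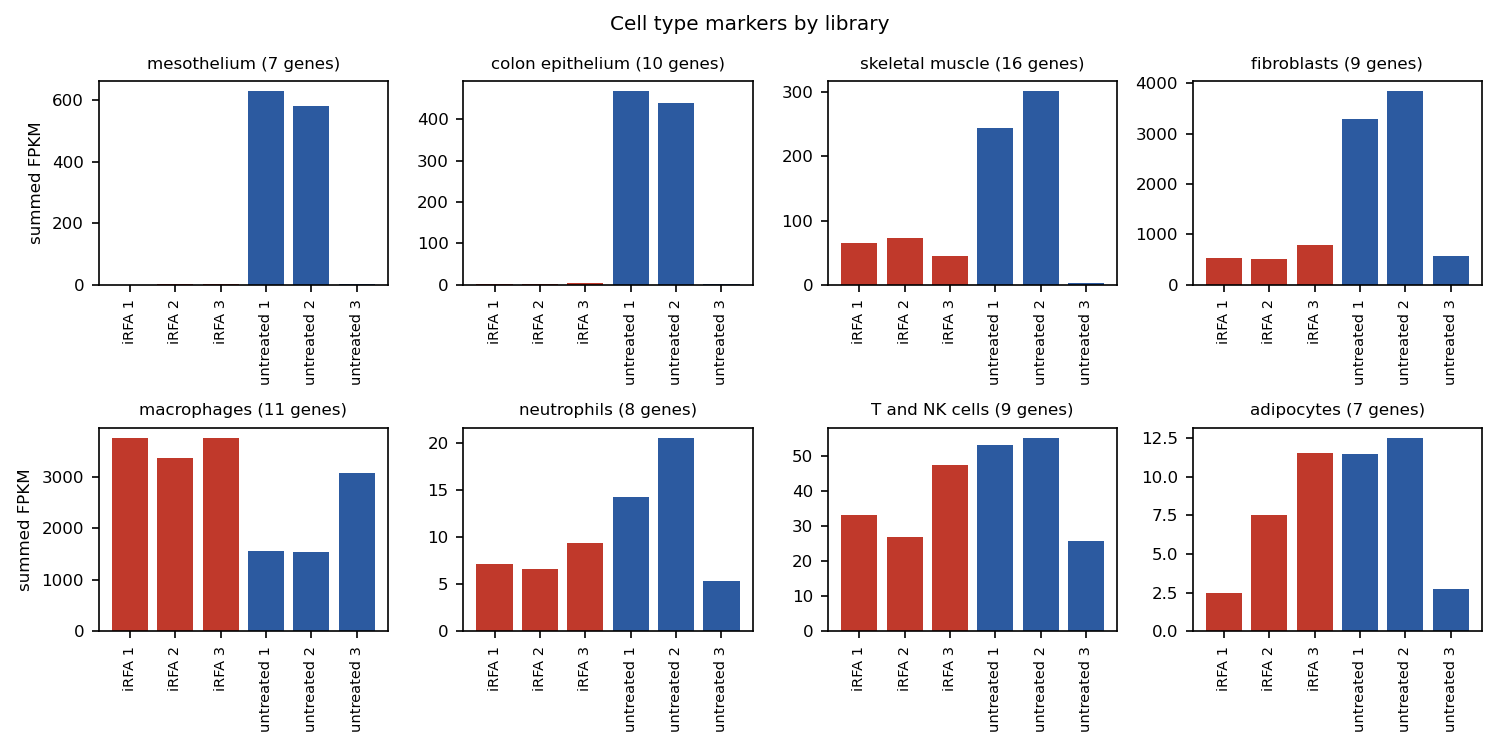
Summed FPKM of 8 marker lists (vertical axes, linear, each with its own scale) in the 3 iRFA libraries (red) and the 3 untreated libraries (blue). Untreated replicates 1 and 2 carry the mesothelial, keratin, muscle and fibroblast signal, and untreated replicate 3 lies near the iRFA libraries in the mesothelial, epithelial, fibroblast and macrophage panels.

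With all 6 libraries, 0 of the 35 records passed the threshold of limma (adjusted p under 0.05), as did 0.00% of all genes tested. At an unadjusted p under 0.05 there were 4, namely Hk3 and Pdha1 higher and Eno2 and Slc2a3 lower, which is 11.4% of the records beside 14.7% of all genes (7.94% higher and 6.75% lower). The smallest adjusted p among the members was 0.250. Every iRFA library lay above every untreated library in 3 records (8.57%, against 11.4% of all genes), the genes Hk3, Pkm and Pdha1. Every iRFA library lay below every untreated library in 4 records (11.4%, against 10.5% of all genes), the genes Eno2, Slc2a3, Gpi1 and Tpi1. Together these were 20.0% of the records, against 21.9% of all genes, so a share near the background. The median log2 fold change of FPKM + 1 was 0.07 over the 35 records and 0.02 over all genes, with 19 positive and 16 negative values. On this scale the changes of genes with low FPKM are understated, and SE is the standard error of a log2 fold change.

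Leaving out untreated replicate 3 altered the count more than any other single library. Limma then called 28 of the 35 records (80.0%, against 64.1% of all genes), 15 higher and 13 lower. Those higher after iRFA were Slc2a1, Hk1, Hk3, Pfkm, the second Aldoa record, Pgk1, Pgam1, Eno1, Pkm, Ldha, Slc16a1, Slc16a3, Pdha1, Pgd and Tkt. Those lower were Slc2a3, Hk2, Gpi1, Pfkp, the main Aldoa record, Aldoc, Pgam2, Eno2, Eno3, Ldhb, Pdk3, Pdk4 and Taldo1. In that comparison 33.9% of all genes were higher and 30.3% lower. With untreated replicates 1 and 2 left out instead, so that 1 untreated library remained and its variance was borrowed from the iRFA libraries, limma called 0 of the 35 records and 0.00643% of all genes. In these counts of separation, 16 records lay higher (45.7%, against 41.0% of all genes) and 14 lower (40.0%, against 36.5%) without untreated replicate 3, together 85.7% against 77.5%. Without untreated replicates 1 and 2, 12 lay higher (34.3%, against 25.7%) and 10 lower (28.6%, against 28.6%), together 62.9% against 54.3%. Untreated replicate 3 was nearer to an iRFA library than to another untreated library in 33 of the 35 records (94.3%, against 86.5% of all genes), with Tpi1 and G6pdx the exceptions. It lay inside the range of the iRFA libraries in 13 records (37.1%, against 45.7% of all genes). Between untreated replicates 1 and 2, 0 records differed at least 2-fold on the FPKM + 1 scale. Between untreated replicate 3 and these 2 libraries, 11 and 10 did, and between untreated replicate 3 and each iRFA library 0 did. The median SD of the members on the log2 scale was 0.10 among the iRFA libraries and 0.43 among the untreated libraries, beside 0.10 and 0.29 over all genes.

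**Figure D2:**
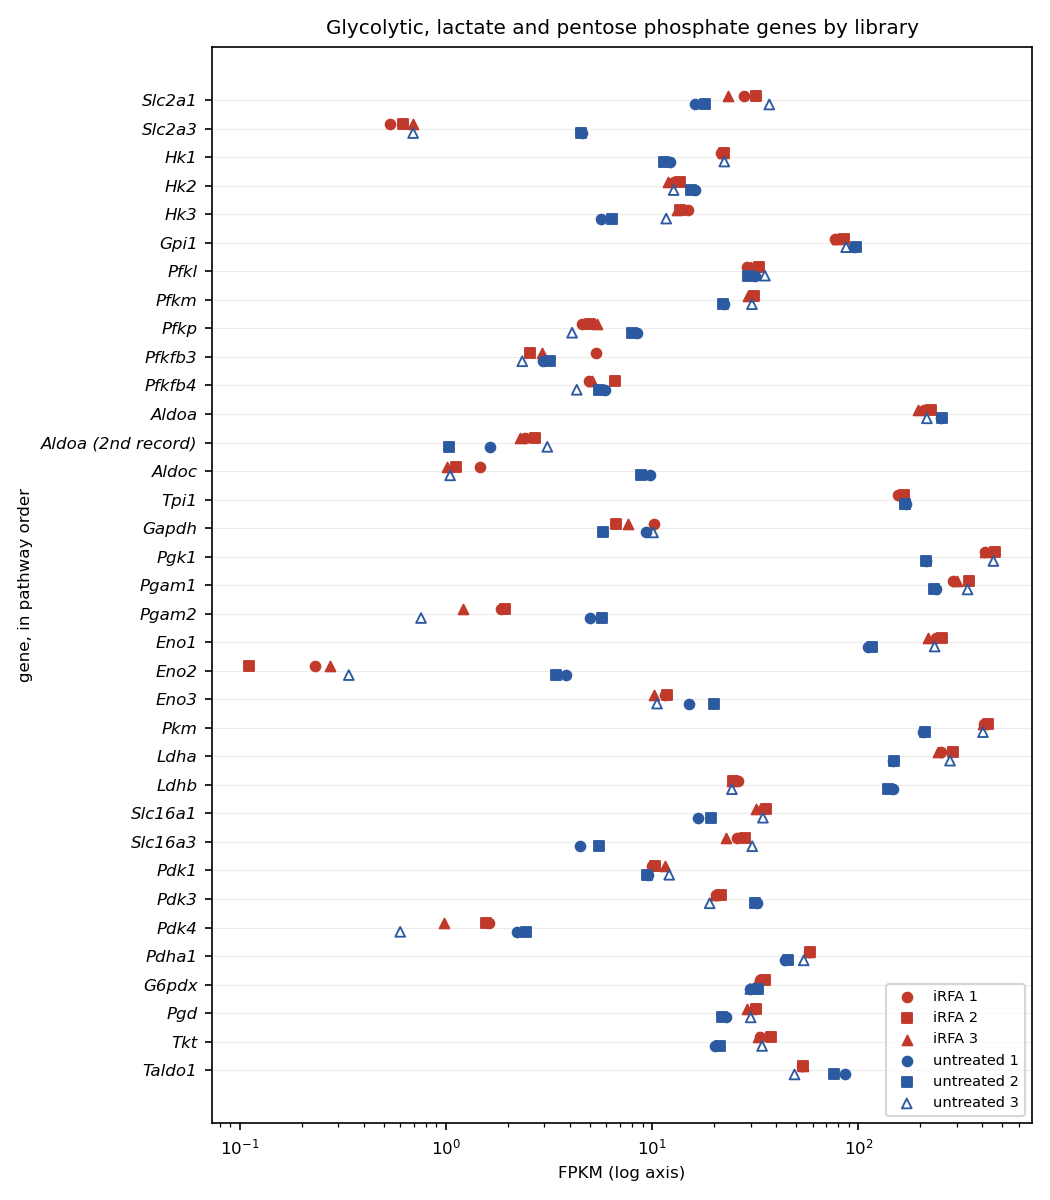
FPKM (horizontal axis, logarithmic) of the 35 records in pathway order, with the iRFA libraries (red) just above the untreated libraries (blue) in each row and untreated replicate 3 as an open triangle. The open triangle lies among or beside the red symbols in most rows, for example in Ldhb, Aldoc and Slc16a3.

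Glucose enters through facilitative transporters. Slc2a1 (GLUT1), the widespread transporter of proliferating cells, was at 27.8, 32.0 and 23.4 FPKM in the iRFA libraries and at 16.1, 18.0 and 37.0 FPKM in the untreated libraries. The iRFA values lay between the lower pair and the highest untreated library (log2 fold change 0.30, SE 0.33, limma adjusted p = 0.521). Slc2a3 (GLUT3; ENSMUSG00000003153, chr6:122727809-122801640, minus strand of GRCm38), a high-affinity transporter best known from neurons, was at 0.533, 0.618 and 0.691 FPKM after iRFA and at 4.59, 4.53 and 0.693 FPKM without treatment. Only untreated replicates 1 and 2 were well above the others, and the groups are separated by the narrow gap between 0.691 and 0.693 FPKM (log2 fold change −1.21, SE 0.49, limma adjusted p = 0.250). Slc2a3 therefore made up 1.88%, 1.89% and 2.87% of the summed FPKM of the 2 transporters after iRFA, against 22.2%, 20.1% and 1.84% without treatment.

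Hexokinases trap glucose as glucose-6-phosphate, and the balance of their 3 isoforms differed between libraries. Hk1, the housekeeping form, was at 21.6, 22.4 and 22.1 FPKM in iRFA libraries and at 12.2, 11.4 and 22.4 FPKM in untreated libraries. Hk3 (ENSMUSG00000025877, chr13:55005985-55021385, minus strand), the isoform of myeloid cells, was at 15.0, 13.6 and 13.1 FPKM after iRFA and at 5.68, 6.36 and 11.7 FPKM without treatment. Its groups did not overlap, also counting untreated replicate 3, and its log2 fold change of 0.80 (SE 0.26) had the smallest unadjusted limma p of the members, 0.0220 (adjusted p = 0.250). The macrophage markers moved with Hk3, and 10 of the 11 were likewise higher without overlap (90.9%, against 11.4% of all genes). The neutrophil markers, also myeloid, did not: all 4 tested had negative log2 fold changes, with overlap. Lyz2, the myeloid lysozyme, was at 1750, 1540 and 1734 FPKM after iRFA and at 492, 486 and 1427 FPKM without treatment. Hk2, the insulin-responsive and hypoxia-inducible isoform, ranged from 11.9 to 13.6 FPKM after iRFA and from 12.7 to 16.1 FPKM without treatment, and its lowest untreated value came from replicate 3. As shares of the summed hexokinase FPKM, Hk3 held 30.3%, 27.5% and 27.9% after iRFA and 16.7%, 19.1% and 25.0% without treatment, a difference of 8.26 percentage points. The share of Hk2 was 26.0%, 27.5% and 25.2% after iRFA, against 47.4%, 46.6% and 27.2%.

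Gpi1, which isomerizes glucose-6-phosphate to fructose-6-phosphate, was at 77.4, 85.0 and 78.6 FPKM in iRFA tumors and at 95.4, 96.9 and 87.3 FPKM in untreated tumors. It was lower in each iRFA library, by a log2 fold change of −0.21 (SE 0.09, limma adjusted p = 0.250), and the highest iRFA and lowest untreated values lay close together.

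Phosphofructokinase commits sugar to glycolysis. Pfkl, the liver-type subunit, was at 28.8, 33.0 and 30.0 FPKM after iRFA and at 31.5, 29.3 and 35.2 FPKM without treatment, with the groups interleaved (log2 fold change −0.06, SE 0.11). Pfkm, the muscle-type subunit, ranged from 29.3 to 31.1 FPKM after iRFA and from 22.2 to 30.5 FPKM without treatment, and Pfkp, the platelet type, from 4.57 to 5.38 against 4.09 to 8.48 FPKM. Within the step, Pfkm held 47.6%, 45.0% and 45.3% of the FPKM in iRFA tumors, against 35.8%, 37.3% and 43.7% in untreated tumors, and Pfkl held 45.2%, 47.8% and 46.4%, against 50.6%, 49.2% and 50.5%. Both shares separated the groups, Pfkm higher and Pfkl lower, although the level of neither gene did. Pfkfb3 and Pfkfb4 set the level of fructose-2,6-bisphosphate, the main activator of phosphofructokinase. Pfkfb4 was at 4.93, 6.61 and 5.10 FPKM after iRFA and at 5.91, 5.50 and 4.31 FPKM without treatment. Pfkfb3 ranged from 2.57 to 5.32 FPKM after iRFA, the highest value standing alone in iRFA replicate 1, and from 2.35 to 3.19 FPKM without treatment. The order of these 2 genes turned with that one library: Pfkfb3 held 51.9%, 28.0% and 36.5% of the pair after iRFA, against 33.4%, 36.7% and 35.2%.

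Aldolase cleaves fructose-1,6-bisphosphate. Aldoa, the muscle and general form, was at 209, 225 and 195 FPKM in iRFA libraries and at 251, 254 and 215 FPKM in untreated libraries (main record, ENSMUSG00000030695). Its second record, upstream on the same strand, carried 1.03 to 3.10 FPKM over the 6 libraries. Aldoc (ENSMUSG00000017390, chr11:78322968-78327781, plus strand), the brain-type aldolase, was at 1.46, 1.12 and 1.02 FPKM after iRFA and at 9.82, 8.84 and 1.05 FPKM without treatment. Untreated replicate 3 fell within the iRFA range of Aldoc, so the groups overlapped (log2 fold change −1.46, SE 0.66, limma adjusted p = 0.250). Aldoc nowhere exceeded 3.74% of the aldolase FPKM. Tpi1, which interconverts the triose phosphates, was at 156, 166 and 162 FPKM after iRFA and at 171, 169 and 169 FPKM without treatment, and its log2 fold change of −0.07 (SE 0.08) was small although the groups did not overlap. Untreated replicate 3 lay with its own group in this gene.

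Gapdh, the dehydrogenase that makes 1,3-bisphosphoglycerate and a common reference gene, was low in its own record and high in near-identical records. That record (ENSMUSG00000057666, chr6:125161715-125166467, minus strand) was at 10.2, 6.69 and 7.64 FPKM in the iRFA libraries and at 9.33, 5.80 and 10.1 FPKM in the untreated libraries, below every other abundant enzyme of the lower pathway. A search of annotated transcripts with the Gapdh coding sequence found 130 other records that match it over at least 300 bases at 90% identity or more. They comprise 119 processed pseudogenes, 7 transcribed processed pseudogenes and 4 protein-coding genes, and 23 of them have 99% identity or more over at least 990 bases. How reads that fit several of these records were divided is not given in the sources used here. A stretch of 75 coding bases, positions 226 to 300 counted from 1 at the first coding base of the transcript used, shows how closely the records match. Letters are from the GENCODE transcripts on GRCm38, and capitals mark bases that differ from Gapdh.
Gapdh: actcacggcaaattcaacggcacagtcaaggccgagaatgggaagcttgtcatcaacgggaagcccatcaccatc
Gm7336: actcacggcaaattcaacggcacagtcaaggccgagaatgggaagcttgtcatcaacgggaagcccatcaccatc
Gm2606: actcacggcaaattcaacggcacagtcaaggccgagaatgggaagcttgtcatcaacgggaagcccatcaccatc
Gapdh-ps15: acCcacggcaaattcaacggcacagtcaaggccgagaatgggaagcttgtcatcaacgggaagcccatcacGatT
The processed pseudogenes Gm7336 (chr7:51746647-51747878) and Gm2606 (chr15:12574889-12575890) have 0 differences here, and Gapdh-ps15 (chrY:38619783-38620784) has 3, T228C, C297G and C300T.

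The FPKM attributed to these copies far exceeded that of Gapdh itself. Gm7336, identical to the coding sequence over 1017 bases, was at 546, 587 and 525 FPKM in iRFA libraries and at 424, 440 and 553 FPKM in untreated libraries. Gm2606 was at 345, 383 and 340 FPKM after iRFA, against 269, 275 and 351 FPKM without treatment. With all near-copies added, the Gapdh total was 2426 ± 181 FPKM in iRFA tumors and 2068 ± 326 FPKM in untreated tumors (SD, n = 3 each), and the own record held 0.255% to 0.496% of it. The log2 fold change was −0.02 (SE 0.24) for the own record and 0.24 for the total, a calculation added after the data had been seen, and the total again placed untreated replicate 3 with the iRFA libraries. The values cannot say which record the reads came from. For the other members with near-copies, the copies held a smaller part of the total. The own record held 71.3% to 73.1% of the total for Eno1, 91.6% to 92.6% for Pgam1, 93.6% to 95.1% for Pgk1, 96.6% to 98.1% for Tpi1 and 97.4% to 97.9% for Pkm, and more than 99% for Aldoa, Gpi1, Ldha, Ldhb and Taldo1. The percentage held by the own record, as distinct from the level, overlapped between the groups for Gapdh, Eno1, Pgam1, Pgk1, Tpi1 and Pkm.

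**Figure D3:**
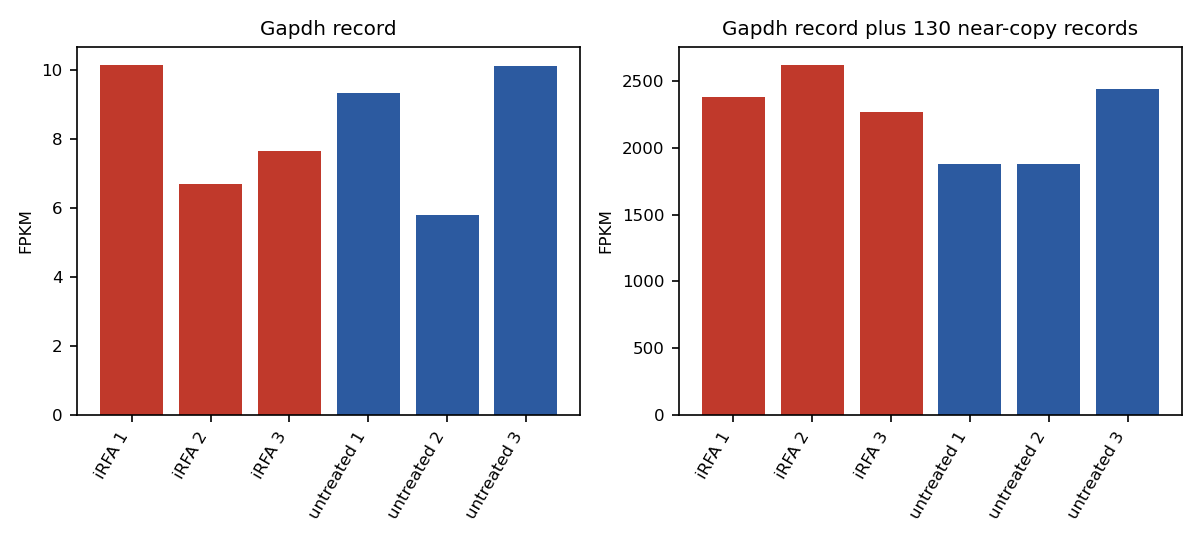
FPKM (vertical axes, linear, different scales) of the Gapdh record alone (left) and of that record with its 130 near-copy records added (right) in each iRFA (red) and untreated (blue) library. The left panel stays at or below 10.2 FPKM, while the right panel averages 2426 FPKM after iRFA and 2068 FPKM without treatment.

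The lower part of the pathway held the most abundant members. Pgk1, the kinase that makes the first ATP of this part, was at 410, 459 and 410 FPKM in iRFA libraries and at 213, 213 and 452 FPKM in untreated libraries (log2 fold change 0.63, SE 0.31, limma adjusted p = 0.251). Pgam1, the general phosphoglycerate mutase, was at 287, 343 and 301 FPKM after iRFA and at 239, 232 and 339 FPKM without treatment. In both genes untreated replicate 3 lay within the iRFA range. Pgam2, the muscle mutase, ranged from 1.21 to 1.93 FPKM after iRFA and from 0.757 to 5.71 FPKM without treatment. It was highest in untreated replicates 1 and 2 and lowest in untreated replicate 3, the order in which the muscle list also ran, with the muscle actin Acta1 at 24.4, 25.3 and 18.2 FPKM after iRFA and at 88.0, 111 and 0.173 FPKM without treatment.

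Enolase makes phosphoenolpyruvate. Eno1 (ENSMUSG00000063524), the general form, was at 238, 256 and 219 FPKM in iRFA libraries and at 112, 117 and 234 FPKM in untreated libraries (log2 fold change 0.70, SE 0.30, limma adjusted p = 0.250). Eno2 (ENSMUSG00000004267, chr6:124760053-124769673, minus strand), the neuron-specific enolase, was at 0.231, 0.111 and 0.274 FPKM after iRFA and at 3.81, 3.41 and 0.338 FPKM without treatment. Its groups did not overlap, although untreated replicate 3 lay just above the iRFA libraries and far below its own group (log2 fold change −1.34, SE 0.51, limma adjusted p = 0.250). The 6 neuron markers ran the other way, with 9.37 to 11.2 FPKM in sum after iRFA against 7.25 to 8.45 FPKM without treatment. Most of that sum was Tubb3, the only one to pass the filter, which was higher without overlap (log2 fold change 0.34), and the other 5 were at or below 0.327 FPKM in every library. Eno3, the muscle enolase, ranged from 10.2 to 11.8 FPKM after iRFA and from 10.6 to 20.0 FPKM without treatment. Eno1 held 95.3%, 95.5% and 95.4% of the enolase FPKM after iRFA, against 85.6%, 83.3% and 95.6% without treatment.

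Pkm (ENSMUSG00000032294, chr9:59656368-59679375, plus strand), the pyruvate kinase of most tissues and tumors, was at 408, 424 and 404 FPKM in iRFA libraries and at 205, 211 and 402 FPKM in untreated libraries. The groups did not overlap, but the gap between iRFA replicate 3 and untreated replicate 3 was under 2 FPKM (log2 fold change 0.67, SE 0.28, limma adjusted p = 0.250). Gene-level values do not separate its M1 and M2 splice forms.

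Lactate dehydrogenase held the largest difference of the isoform shares, 26.6 percentage points for Ldha. Ldha (ENSMUSG00000063229, chr7:46841475-46855627, plus strand), whose subunit predominates in muscle and in glycolytic tumors, was at 253, 289 and 242 FPKM in iRFA libraries and at 147, 150 and 278 FPKM in untreated libraries. Ldhb (ENSMUSG00000030246, chr6:142490249-142507957, minus strand), the heart-type subunit, was at 26.1, 24.7 and 24.4 FPKM after iRFA and at 146, 139 and 24.4 FPKM without treatment. Untreated replicates 1 and 2 thus carried similar amounts of both, and the other 4 libraries carried mainly Ldha. The ratio of Ldha to Ldhb was 9.68, 11.7 and 9.94 after iRFA, against 1.00, 1.08 and 11.4 without treatment. On the FPKM + 1 scale, Ldhb had the largest absolute log2 fold change of the members, −1.63 (SE 0.70, limma adjusted p = 0.250), and untreated replicate 3 was marginally below every iRFA library. The log2 fold change of Ldha was 0.51 (SE 0.27, limma adjusted p = 0.261). The ratio of mean FPKM, iRFA over untreated, was 0.243 for Ldhb and lower for Eno2 (0.082), Aldoc (0.183) and Slc2a3 (0.188). The sum of both subunits hardly differed, with 286 ± 24.0 FPKM in iRFA tumors and 295 ± 7.29 FPKM in untreated tumors (SD, n = 3 each), the isoforms moving in opposite directions within a similar total. Without untreated replicate 3, the log2 fold change of Ldhb was −2.46 (SE 0.06, limma adjusted p = 4.6e-06) and that of Ldha 0.81 (SE 0.09, adjusted p = 5.7e-04). Without untreated replicates 1 and 2 they were 0.04 and −0.10.

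Lactate leaves and enters cells through monocarboxylate transporters. Slc16a3 (MCT4; ENSMUSG00000025161, chr11:120948480-120960868, plus strand), the low-affinity exporter of glycolytic cells, was at 25.8, 28.1 and 22.8 FPKM in iRFA libraries and at 4.47, 5.53 and 30.6 FPKM in untreated libraries. Its mean of 25.5 ± 2.69 FPKM in iRFA tumors stood against 13.5 ± 14.8 FPKM in untreated tumors (SD, n = 3 each), a log2 fold change of 1.35 (SE 0.68, limma adjusted p = 0.253). Untreated replicate 3 was the highest of all 6 libraries. Slc16a1 (MCT1), the widespread transporter for both directions, was at 34.6, 35.8 and 31.9 FPKM after iRFA and at 16.7, 19.3 and 34.5 FPKM without treatment. Slc16a3 made up 42.6%, 44.0% and 41.6% of the pair after iRFA, against 21.1%, 22.2% and 47.0%.

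Entry of pyruvate into the citric acid cycle runs through pyruvate dehydrogenase, which the Pdk kinases switch off. Pdha1 (ENSMUSG00000031299, chrX:160122209-160138413, minus strand), the catalytic E1 alpha subunit, was at 57.9, 58.0 and 57.8 FPKM in iRFA libraries and at 44.0, 45.4 and 54.3 FPKM in untreated libraries. It was higher in every iRFA library, with the narrowest spread of any member relative to its mean among the iRFA libraries (57.9 ± 0.095 FPKM, SD, n = 3) and a log2 fold change of 0.27 (SE 0.11, limma adjusted p = 0.250). Pdk3 was at 20.4, 21.6 and 20.2 FPKM after iRFA and at 32.3, 31.6 and 19.0 FPKM without treatment, the only high values being those of untreated replicates 1 and 2. Pdk1, a hypoxia-inducible kinase, ranged from 9.99 to 11.6 FPKM after iRFA and from 9.42 to 12.1 FPKM without treatment. Pdk4, the kinase of fasting muscle, ranged from 0.981 to 1.63 FPKM after iRFA and from 0.600 to 2.45 FPKM without treatment.

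The pentose phosphate pathway was measured through 4 enzymes. G6pdx, its rate-limiting entry enzyme, was at 33.3, 35.3 and 32.7 FPKM in iRFA libraries and at 29.9, 32.7 and 29.9 FPKM in untreated libraries, and untreated replicate 3 lay between the other 2 of its group (log2 fold change 0.13, SE 0.09, limma adjusted p = 0.338). Pgd, the second NADPH-producing enzyme, ranged from 29.0 to 31.9 FPKM after iRFA and from 21.8 to 30.1 FPKM without treatment. In the non-oxidative branch, Taldo1 (transaldolase) was at 53.1, 53.7 and 54.0 FPKM after iRFA and at 86.3, 75.9 and 49.0 FPKM without treatment, whereas Tkt (transketolase) ranged from 32.7 to 37.6 FPKM after iRFA and from 20.3 to 34.1 FPKM without treatment. Untreated replicates 1 and 2 thus held more Taldo1 and less Tkt than the other 4 libraries.

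**Figure D4:**
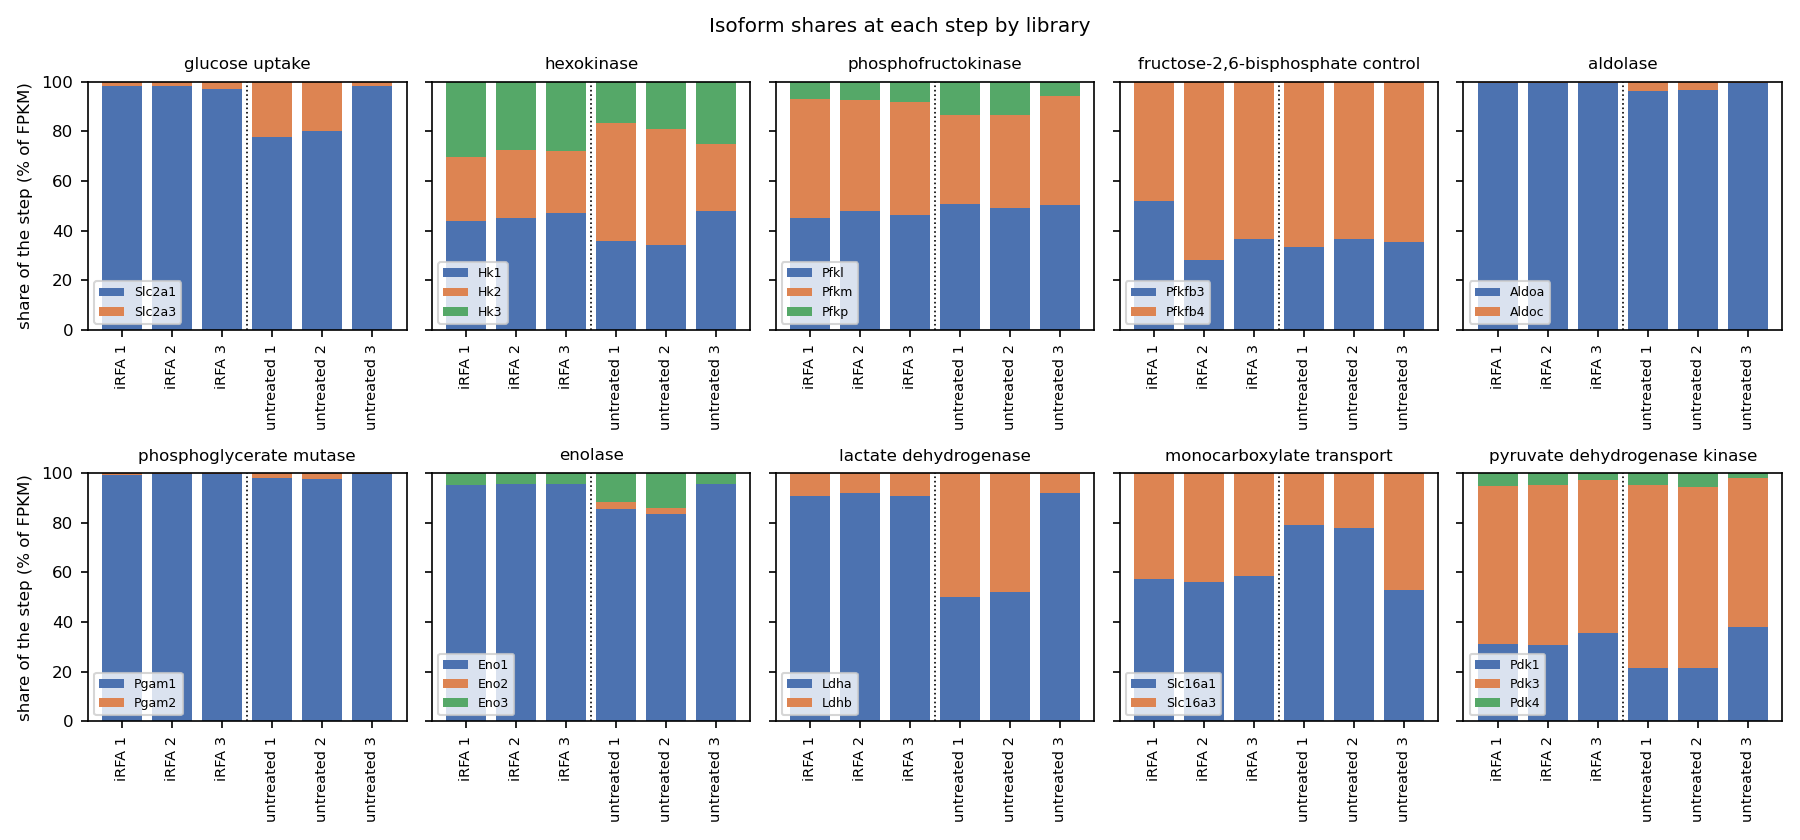
Share of each isoform in the summed FPKM of its step (vertical axis, percent) in the iRFA libraries (left of the dotted line) and the untreated libraries (right of it) for 10 steps. At lactate dehydrogenase the Ldha share is 90.6% to 92.1% after iRFA and 50.0%, 51.9% and 92.0% in the untreated libraries.

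Isoform shares are free of library scaling. Of 18 shares at 10 steps, 4 separated the groups, those of Hk3 and Pfkm higher and those of Pfkl and Eno2 lower after iRFA. Each had an exact two-sided permutation p of 0.1, the smallest that 3 libraries against 3 allow, and an adjusted p of 0.45 over the 18 shares. No share could reach 0.05 in this design. Without untreated replicate 3, the groups were separated in 16 of the 18. In that comparison the levels of 77.5% of all genes tested also separated the groups, against 21.9% with all 6 libraries. Shares of the same step are not independent of each other.

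**Figure D5:**
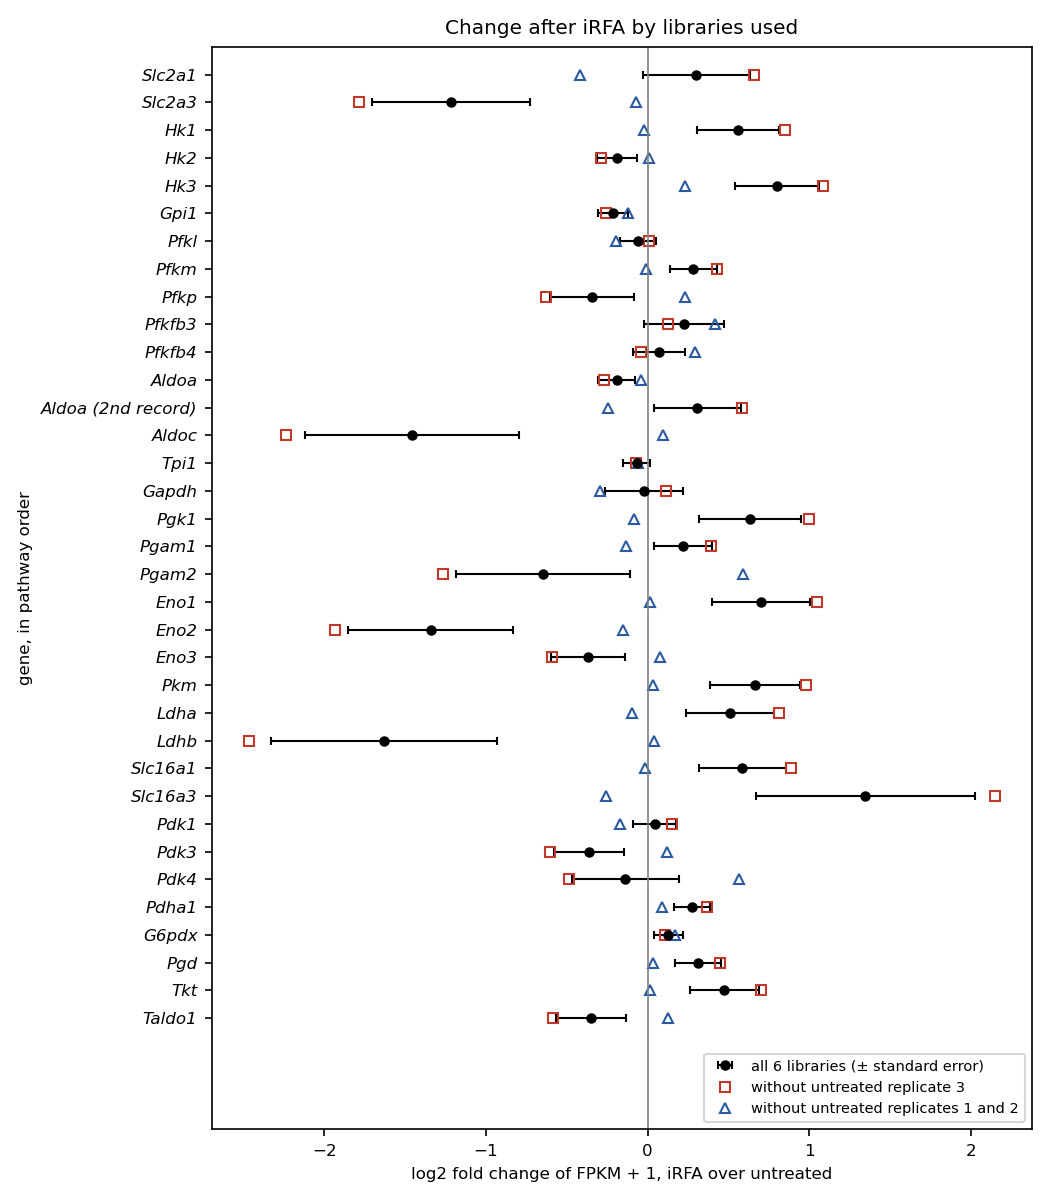
Log2 fold change of FPKM + 1, iRFA over untreated (horizontal axis), of the 35 records with all 6 libraries (black, bars are 1 SE), without untreated replicate 3 (red squares) and without untreated replicates 1 and 2 (blue triangles). The red squares lie farther from 0 than the black points in most rows, as for Ldhb at −2.46 against −1.63, and the blue triangles mostly lie near 0.

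Promoter sequence was inspected because hypoxia-inducible factors and MYC, known regulators of this pathway, bind sites with cores such as ACGTG, which the E-box CACGTG contains. Only ACGTG was searched, on both strands of the 250 bases before each RefSeq start of build GRCm38.p6. Of the 34 members, 33 had at least 1 such window. Other forms of these sites, such as GCGTG, were not counted, so a window without ACGTG can still hold them. It occurred in 13 of the 33 members (39.4%), against 18.5% of 27025 genes with a window. The 13 were Slc2a1, Hk2, Hk3, Pfkm, Pfkfb3, Aldoa, Pgk1, Pgam1, Pkm, Ldha, Slc16a1, Slc16a3 and Pdk3, of which 10 had a positive and 3 (Hk2, Pdk3 and the main record of Aldoa) a negative log2 fold change. Of the 20 members without it, 8 had a positive value, Eno1 (0.70) and Hk1 (0.56) among them, and 12 a negative one. These counts were made after the data had been seen and carry no test. The signs also depend on untreated replicates 1 and 2. With these left out, Slc2a1, Pfkm, Pgk1, Pgam1, Ldha, Slc16a1 and Slc16a3 turned negative, and Hk2 and Pdk3 positive. Members without ACGTG turned sign as well, Hk1 and Ldhb among them. The windows of Ldha, Slc16a3 and Pgk1, which hold ACGTG, and of Ldhb, which does not, are printed. These examples were chosen after the matches were known and do not stand for the direction of the other members. They run 5′ to 3′ on the strand of the gene, with capitals on ACGTG or its reverse complement CACGT; where both overlap they form CACGTG. The Ldha and Slc16a3 windows lie before a RefSeq start that is inside the longer GENCODE gene model.
Ldha, chr7:46845554-46845803, plus strand: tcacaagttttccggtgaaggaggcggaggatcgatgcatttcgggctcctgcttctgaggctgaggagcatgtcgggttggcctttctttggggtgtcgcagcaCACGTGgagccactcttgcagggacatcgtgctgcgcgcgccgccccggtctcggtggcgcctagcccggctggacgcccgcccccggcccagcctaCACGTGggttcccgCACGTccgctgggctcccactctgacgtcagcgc
Slc16a3, chr11:120948817-120949066, plus strand: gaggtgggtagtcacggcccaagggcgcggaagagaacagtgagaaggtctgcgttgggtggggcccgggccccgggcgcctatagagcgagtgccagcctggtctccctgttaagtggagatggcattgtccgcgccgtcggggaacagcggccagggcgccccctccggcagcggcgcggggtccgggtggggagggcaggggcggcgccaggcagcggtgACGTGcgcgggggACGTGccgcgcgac
Pgk1, chrX:106186850-106187099, plus strand: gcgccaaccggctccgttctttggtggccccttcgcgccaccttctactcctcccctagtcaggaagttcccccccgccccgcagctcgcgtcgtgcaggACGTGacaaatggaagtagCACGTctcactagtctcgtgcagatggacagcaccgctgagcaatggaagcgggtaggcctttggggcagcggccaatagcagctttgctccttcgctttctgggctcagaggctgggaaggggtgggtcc
Ldhb, chr6:142507958-142508207, minus strand: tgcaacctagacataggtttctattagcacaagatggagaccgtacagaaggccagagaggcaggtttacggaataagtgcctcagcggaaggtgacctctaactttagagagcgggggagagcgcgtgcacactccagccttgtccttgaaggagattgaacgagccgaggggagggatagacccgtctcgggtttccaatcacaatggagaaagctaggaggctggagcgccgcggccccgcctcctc
The Ldhb window holds 0 matches to ACGTG, although it holds GCGTG, and the Slc16a3 window holds 2 matches. A match is a description of the letters only, and Ldha has another RefSeq start whose window holds 0.

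Other genes of the same pathways were counted from a list of 68 found in the files, of which 48 passed the filter. Of the 48, 8 were higher and 5 lower without overlap (27.1%, against 21.9% of all genes), 0 passed limma, and the median log2 fold change was 0.01. An unadjusted limma p under 0.05 was found in 8 of the 48, beside 14.7% of all genes. Without untreated replicate 3, limma called 17 higher and 18 lower, where 33.9% of all genes were called higher and 30.3% lower. The counts within single lists are small and stand beside the same shares of all genes without overlap, 11.4% higher and 10.5% lower. In transport, Slc2a6, a member of the glucose transporter family, ranged from 8.87 to 9.16 FPKM after iRFA and was at 1.86, 1.90 and 7.68 FPKM without treatment. Slc2a8 and Slc2a13 were lower without overlap, with log2 fold changes of −0.80 and −0.56. These shrank to −0.17 and −0.098 with untreated replicates 1 and 2 left out. The chaperone of the lactate transporters, Bsg (basigin), was at 152, 243 and 154 FPKM after iRFA and at 212, 300 and 258 FPKM without treatment, and its relative Emb had a log2 fold change of −0.23.

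Among further glycolytic genes, 0 were higher and 3 lower without overlap of 7 tested. Galm, which interconverts the anomers of sugars, was at 2.23, 2.07 and 2.04 FPKM after iRFA and at 7.27, 7.23 and 2.37 FPKM without treatment. The others were Pfkfb2 (log2 fold change −0.56) and the ADP-dependent glucokinase Adpgk (−0.27), while the abundant Bpgm and Tigar had −0.83 and −0.01 with overlapping groups. Of 7 tested pyruvate dehydrogenase genes, Pdhb, the E1 beta partner of Pdha1, and the phosphatase Pdp2 were higher without overlap (log2 fold changes 0.23 and 0.42), and Dld had 0.21. Pdhb was at 25.5, 26.3 and 25.6 FPKM after iRFA and at 20.7, 19.9 and 25.3 FPKM without treatment. In the pentose phosphate list, Prps1, which makes phosphoribosyl pyrophosphate, was at 32.8, 33.7 and 31.7 FPKM after iRFA and at 16.5, 17.3 and 30.5 FPKM without treatment, and Rbks (ribokinase) was also higher without overlap (log2 fold change 0.28). H6pd of the endoplasmic reticulum had −0.34. For gluconeogenesis and glycogen, 3 of 17 were higher and 0 lower without overlap, with glycogenin Gyg at 25.8, 23.4 and 25.1 FPKM after iRFA and at 11.8, 13.6 and 20.0 FPKM without treatment, beside Pgm2 and Phka1 (log2 fold changes 0.19 and 0.14). The abundant Pygb and Pgm1 had −0.44 and 0.07.

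Regulators were described the same way. Of 18 tested, 1 was higher and 3 lower without overlap (22.2%, against 21.9% of all genes), so a share near the background. Hif1a, the oxygen-regulated subunit, was at 35.7, 32.4 and 37.5 FPKM in iRFA libraries and at 39.9, 40.3 and 34.2 FPKM in untreated libraries, and Nfe2l2 (NRF2) had a log2 fold change of −0.10, both with overlap. Egln3, a hypoxia-induced prolyl hydroxylase, was at 24.2, 30.8 and 29.8 FPKM after iRFA and at 40.1, 43.5 and 38.1 FPKM without treatment. In Egln3 untreated replicate 3 lay with its own group (log2 fold change −0.51, unadjusted p = 0.00693, adjusted p = 0.250 from limma). Mlxipl, the glucose-sensing factor ChREBP, and Foxo1 were lower without overlap (log2 fold changes −1.06 and −0.44), and Ppard was higher (0.39). With untreated replicates 1 and 2 left out, Mlxipl, Foxo1 and Ppard had −0.15, −0.12 and 0.083. Myc was at 29.8, 35.1 and 23.6 FPKM after iRFA and at 6.76, 6.66 and 24.7 FPKM without treatment, with overlap. Its log2 fold change of 1.39 (SE 0.51, limma adjusted p = 0.250) was the largest of the tested regulators. Leaving out untreated replicate 3, limma called 4 regulators higher, Myc among them (1.97), and 8 lower, beside 33.9% and 30.3% of all genes. Without untreated replicates 1 and 2, the value of Myc was 0.23. Of 10 hypoxia reporters outside the pathway, 0 were higher and 4 lower without overlap (40.0%, against 21.9% of all genes, of which 11.4% higher and 10.5% lower), Egln3 counted again among them. Carbonic anhydrase Car9 was at 3.36, 5.67 and 3.27 FPKM after iRFA and at 10.8, 11.7 and 6.47 FPKM without treatment. Ndrg1 and Ddit4 had log2 fold changes of −0.92 and −0.65. Of the other 6, P4ha1 and Bnip3 had positive values with overlap (0.31 and 0.20). Without untreated replicate 3, limma called these 2 higher (0.62 and 0.51) and the 4 separated genes lower. With untreated replicates 1 and 2 left out, P4ha1 and Bnip3 turned to −0.29 and −0.40, and the 4 separated genes stayed negative. Of 7 tested NRF2 targets, Gclc alone was separated (lower, log2 fold change −0.77), and the abundant Hmox1 and Txnrd1 had 0.64 and 0.72 with overlap.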

How the data were processed

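Bulk RNA-seq of 3 iRFA and 3 untreated CT26 tumors was used, with groups taken from the sample labels. Per the submitters' processing notes, the authors used FastQC for read quality, HISAT2 for alignment (GRCm38) and StringTie for the deposited FPKM of each gene. Versions and the annotation release are not given in the sources used here. FPKM is divided by transcript length and mapped fragments, so no counts or depth are held and no count test was run. The most common ratio of values under 0.3 FPKM to those of untreated replicate 1 placed the relative depth at 1.00 to 1.10. Ratios were searched only within a narrow window, so a larger difference in depth would not have been found.

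Members and lists were chosen with earlier results of these data known. Named with all values were the most abundant member of each step, the members whose groups do not overlap and the 8 with the largest log2 fold change. Of the other pathway lists, regulators, hypoxia reporters and NRF2 targets, the 2 most abundant genes and those without overlap were named. Lyz2, Acta1, Krt8, Krt18, Tubb3, Myc and P4ha1 were named after their values were seen.

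From the deposited values, log2(FPKM + 1) was compared by limma 3.58.1 in R 4.3.3 (variance trend, two-sided, Benjamini-Hochberg over all genes, threshold 0.05) over the 15560 genes whose mean reached 0.5 FPKM. The procedure was run on simulated data in which both groups had the spread of the iRFA libraries. The wider spread of the untreated libraries was not simulated, so that run does not cover it. Non-overlap means that all libraries of one group lie above all of the other. Isoform shares are percent of the summed FPKM of a step and were compared by exact permutation (scipy 1.17.1, Python 3.11.15, numpy 2.4.6, pandas 2.3.3, matplotlib 3.10.9). Near-copies were found with BLAST 2.17.0 in transcripts of the GENCODE mouse release M21, at 90% identity over at least 300 bases. Promoters are from RefSeq (GRCm38.p6). Alternatives were another pseudocount, filter, scaling, variance model, a replicate block, pseudogene rows added, further isoforms counted and each library left out. The comparison without untreated replicates 1 and 2 and the addition of near-copies were chosen after seeing the data. Of the listed pathway genes, 5 (Pgk2, Pklr, Pdha2, Tktl2 and G6pc) were not analysed here.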

Additional observations from a re-analysis of the deposited data

How the results depend on the processing

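Limma called 0 of the 35 records under every alternative run other than leaving out untreated replicate 3, and the change from that one library was the largest seen. With each library left out in turn, the members called ranged from 0 to 28, the members higher without overlap from 3 to 16 (12.5% to 41.0% of all genes) and lower from 4 to 14 (11.5% to 36.5% of all genes), the other pathway genes without overlap from 14 to 39 (24.0% to 77.5% of all genes), the isoform shares without overlap from 4 to 16, and the genes called over all tested genes from 0 to 5269 higher and 0 to 4711 lower. Without iRFA replicate 3 the members higher without overlap numbered 7 (20.0%, against 17.3% of all genes). Median-of-ratios scaling left 2 members lower without overlap (5.71%, against 9.13% of all genes), where the deposited scaling left 4 (11.4%, against 10.5%), and the cause was not tested. No scaling moved the median of all genes by as much as 0.1 on the log2 scale, and quantile normalization gave the highest median, 0.094. The replicate numbers did not pair the libraries (correlations of −0.094, −0.11 and −0.23 between same-numbered libraries), and with the replicate block 0 members were called, with no call changed.

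Signs turned for small changes. When FPKM sums were made equal, Pdk1 had −0.032 and Pfkfb4 −0.0017, and −0.033 and −0.0022 when the muscle list was removed first. Quantile normalization gave 0.0015 for Gapdh and 0.092 for Pdk4. Adding named pseudogenes gave Gapdh 0.20, and adding near-copies, chosen after seeing the data, 0.24. Counting Pdk2 at its step turned the difference of the Pdk3 share to 1.98 percentage points. With one library left out, log2 fold changes spanned 0 in Gapdh (−0.24 to 0.11), Pfkl (−0.12 to 0.011), Pfkfb3 (−0.027 to 0.39), Pfkfb4 (−0.044 to 0.15), Pdk1 (−0.014 to 0.15) and Pdk4 (−0.49 to 0.065), as did the share differences of Pfkfb3 (−2.89 to 9.07 points) and Pdk4 (−1.08 to 0.788 points).

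Without untreated replicates 1 and 2, chosen after seeing the data and with the variance of the 1 untreated library left borrowed from the iRFA libraries, 1 of all tested genes was called higher, 12 members were higher and 10 lower without overlap (54.3% of all genes), 31 other pathway genes and 15 isoform shares were without overlap, and 0 members were called. The log2 fold changes that then turned sign were −0.42 in Slc2a1, −0.023 in Hk1, 0.0055 in Hk2, −0.010 in Pfkm, 0.23 in Pfkp, −0.24 in the second Aldoa record, 0.098 in Aldoc, −0.086 in Pgk1, −0.13 in Pgam1, 0.59 in Pgam2, 0.075 in Eno3, −0.095 in Ldha, 0.038 in Ldhb, −0.016 in Slc16a1, −0.26 in Slc16a3, −0.17 in Pdk1, 0.12 in Pdk3, 0.57 in Pdk4 and 0.13 in Taldo1. Share differences turned to −0.378 points in Slc2a1, −2.60 in Hk1, 1.71 in Pfkp, −0.0848 in Aldoa, −0.311 in Pgam1, −0.144 in Eno1, 0.197 in Eno3, −0.745 in Ldha, 4.26 in Slc16a1, −5.67 in Pdk1 and 3.32 in Pdk3. The files hold no counts, so precision rests on the spread between 3 libraries a group.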
